A study of Gallus gallus with 15 samples.

Results

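The collagen chains were examined in the breast muscle of 15 female Korat chickens (KRC). Members were taken by name, as every gene whose symbol is COL followed by a type number, the letter A and a chain number, plus LOC107051274, which the annotation calls a chain similar to the second chain of type IV collagen. This gave 42 of the 17475 genes in the table. By collagen type they comprised 9 fibril-forming chains, 7 chains of the basement membrane network, 5 beaded filament chains, 10 fibril-associated chains, 2 multiplexins, 3 short-chain network chains, 4 transmembrane chains, the anchoring fibril chain COL7A1 and COL26A1. LOC107051274 does not match the name pattern and was added with its results in these birds known, so its fold changes are given as a description and its place among the chains is no independent evidence.

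KRC are a slow-growing cross of Thai indigenous males with females of a university breeder line, and all birds were sampled at 10 weeks of age. Group A (A1 to A5, control) received the diet without supplement, group B (B1 to B5) the same kind of diet with 1% β-alanine, and group C (C1 to C5) with 0.5% L-histidine. Both compounds are the building blocks of carnosine, a dipeptide of muscle, and supplementation ran over the later growth phases. Each group held 5 birds, 1 from each of its 5 cages, and a single library was made per bird, so that cage and bird cannot be told apart.

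Collagens are proteins whose chains wind into a triple helix. Fibril-forming types give connective tissue its tensile strength, type IV forms the sheet-like network of basement membranes around muscle fibres and capillaries, and type VI forms beaded filaments next to that sheet. In skeletal muscle, most collagen is made by fibroblasts of the connective tissue between fibres and bundles, and the amount and crosslinking of this collagen are known to affect meat texture.

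The total count per bird was 10620229 to 14553374 in the controls, 13957490 to 15381547 in group B and 13435756 to 14964384 in group C. Levels are given as normalized FPKM, that is counts per kilobase of exon relative to a library size scaled by relative log expression. Fast skeletal muscle genes had a summed level of 59914 to 145214 normalized FPKM in all birds, for the 5 of 7 listed markers matched by symbol, and epithelial markers stayed under 0.895. Bird A4 had the lowest total, and the lowest level in its group for 16 of the 27 tested collagen chains, beside 29.0% of all genes. Bird C4 was lowest in its group for 15 chains, beside 17.9% of all genes, and bird B2 for 14, beside 24.3%. Bird B4 was highest in its group for 13 chains, beside 19.7% of all genes. Bird C2 had the highest level in its group for 17 of the 27 chains, beside 26.6% of all genes. Many results below that rest on A4 or C2 have their value without that bird beside them or in the closing section. Other values may also depend on these birds. In bulk tissue, fewer cells of a type and less RNA per cell cannot be told apart.

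Of the 42 chains, 27 had a mean deposited FPKM of at least 0.2 and were tested, and 15 did not. COL25A1 and COL4A4, at means of 0.209 and 0.203, reached this limit only through bird C2, at 1.8 and 2.1. Their tests in group C are therefore not independent of that bird, and the fits without C2 kept both chains. COL3A1, the chain of type III collagen, was the highest collagen chain in 15 of 15 birds, with a mean of 128 normalized FPKM over all birds. It was followed by COL1A1 and COL1A2, the chains of type I collagen, at 56.0 and 54.6, and by COL4A1 and COL6A1 at 54.6 and 51.4. The means of COL1A1, COL4A1, COL1A2 and COL6A1 lay within the SD of each of these chains in group A. In all, 11 chains lay above 10 normalized FPKM on average, 7 between 1 and 10, and 9 of the tested chains under 1.

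**Figure D1:**
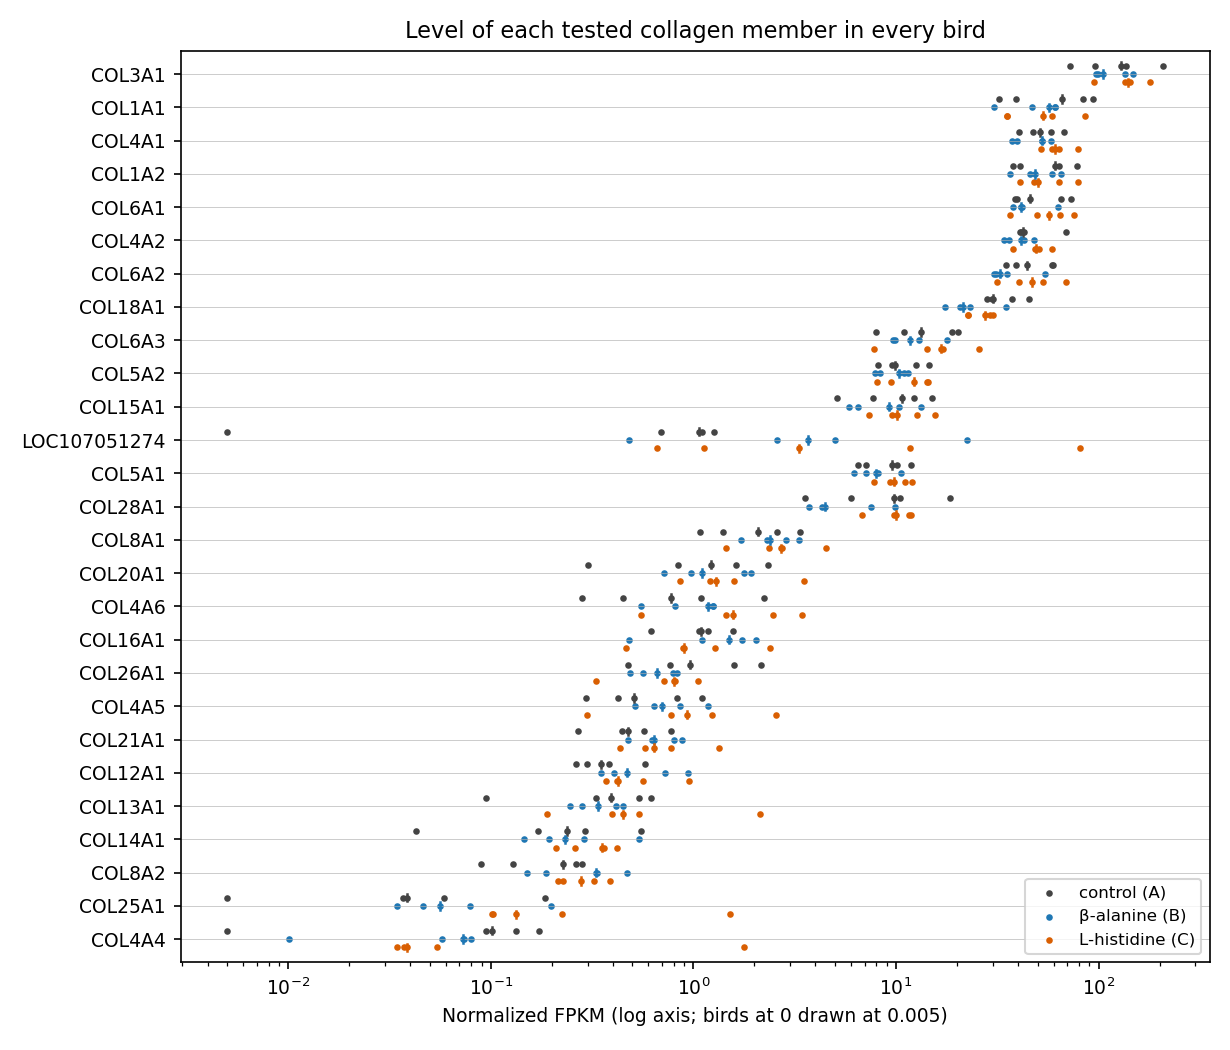
Level of the 27 tested collagen chains in every bird, in normalized FPKM on a log axis, ordered by their mean over 15 birds, with a short bar at the median of each group of 5 birds. COL3A1 lies at the top and COL4A4 at the bottom, the groups overlap for every chain, and single birds stand far to the right for LOC107051274, COL25A1, COL4A4 and COL13A1.

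The collagen chains together took 0.165% to 0.517% of all counts of a bird. Their summed level was 390 to 766 normalized FPKM, of which fibril-forming chains made up 41.5% to 56.2%, the basement membrane network 13.7% to 25.7%, beaded filament chains 18.7% to 25.1% and multiplexins 5.17% to 10.9%. The summed level was 547 ± 132 in the controls, 476 ± 80.4 in group B and 584 ± 128 in group C (mean ± SD, n = 5 each), so that the means differed by less than the spread of the birds in group A.

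The summed collagen level and the summed level of 6 fibroblast markers (PDGFRA, DCN, LUM, FBLN1, FBLN5 and DPT) had their highest and lowest birds in common within each group. In group A, bird A5 was highest for both, at 699 for collagen and 106 for the markers, and bird A4 lowest for both, at 390 and 29.9. In group B, bird B4 was highest at 596 and 98.1, and bird B2 lowest at 395 and 55.7. In group C, bird C2 was highest at 766 and 123, and bird C4 lowest at 412 and 50.1. In that group, the cartilage, macrophage, and smooth muscle and pericyte marker lists also had their highest sum in C2 and their lowest in C4. In neither group A nor group B did these other lists share both the highest and the lowest bird with collagen. All 6 fibroblast markers were counted in all 15 birds. Most of the sum came from DCN, at 19.4 to 80.0, and LUM, at 6.74 to 25.1, with the others at 0.456 to 6.96. Single markers did not all follow the sum. In group B, DCN was highest in B5 at 69.3, FBLN1 was highest in B2 at 2.14, and DPT was lowest in B1 at 1.96. The ranges of the marker sum were 29.9 to 106 in the controls, 55.7 to 98.1 in group B and 50.1 to 123 in group C, and the part of fibroblast content in the fold changes below was not tested.

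**Figure D2:**
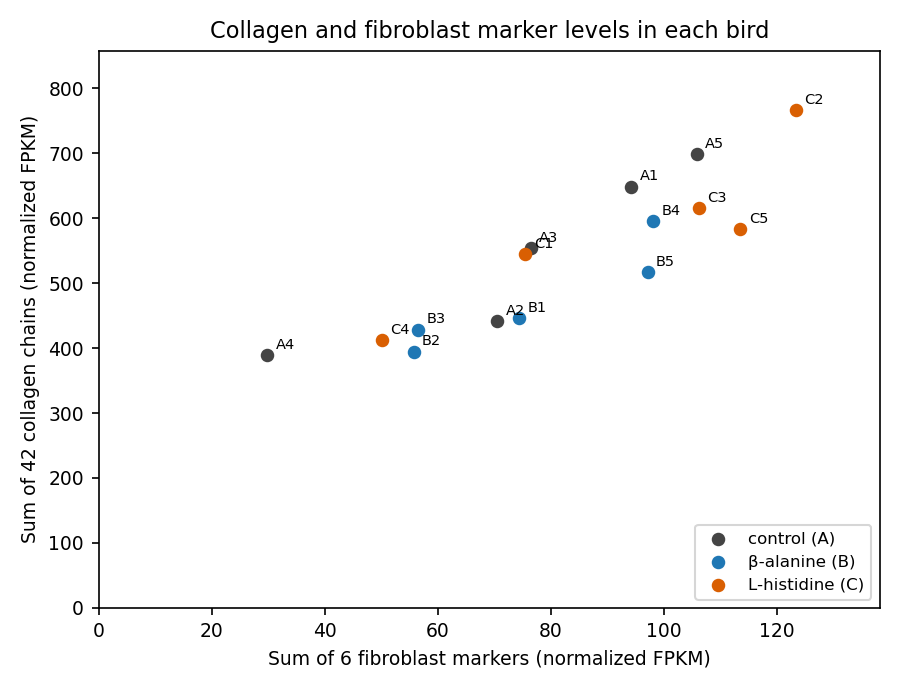
Summed level of the 42 collagen chains against the summed level of 6 fibroblast markers, both in normalized FPKM, with 1 point per bird. Within each group the bird with the highest marker sum (A5, B4, C2) also had the highest collagen sum, and the bird with the lowest marker sum (A4, B2, C4) the lowest.

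Both supplemented groups share the same control birds, and each comparison is therefore given on its own. With edgeR and Benjamini-Hochberg adjustment over 11858 genes, 0 genes and 0 collagen chains had an adjusted p under 0.05 in group B compared with group A. At an unadjusted p under 0.05 there were 1262 genes (10.6%) and 3 of the 27 chains, of which 1 was higher (4.47% of all genes) and 2 were lower (6.17%). DESeq2 called 59 genes (0.528%) and 0 chains. The fold change was above 0 for 11 chains and below 0 for 16, where 48.3% of all genes lay above 0, and the median log2 fold change was -0.14 against -0.02 over all genes. Without bird A4, 8 of the 27 chains lay above 0, with a median of -0.23. The count of 3 chains became 0 without bird A1, 1 without bird A2 and 5 without bird B4. The share of all genes at this limit was not counted in these fits, so the counts are no result about the chains.

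In group C compared with group A, 0 genes and 0 chains were called by edgeR, and DESeq2 called 235 genes (2.16%) and 1 chain, LOC107051274. At an unadjusted p under 0.05 there were 2273 genes (19.2%) and 2 chains, both higher (7.99% of all genes were higher at this limit and 11.2% lower). The 2 were LOC107051274, added with its results known, and COL25A1, which reached the minimum level for a test only through C2. Of the 27 chains, 23 had a fold change above 0, against 51.0% of all genes, with a median log2 fold change of 0.19 against 0.01. This balance moved with single birds. Without bird C2, 14 of the 27 chains lay above 0, with a median of 0.01, and without bird A4 there were 17. The count of 2 chains became 1 without C2, 5 without A3, 4 without A5, 6 without C3 and 4 without C5. The share of all genes at this limit was not counted in these fits, so the counts are no result about the chains. Over all genes, DESeq2 called 54 in this comparison without C2 and 893 without C3.

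In group C compared with group B, 24 of the 27 chains had a fold change above 0, against 51.4% of all genes, and 20 did so without bird C2. The median log2 fold change was 0.29, against 0.01 over all genes, and 0.15 without C2. Neither edgeR nor DESeq2 called a gene. By edgeR, 477 genes (4.02%) and 2 chains had an unadjusted p under 0.05. Both chains were higher, where 2.51% of all genes were higher and 1.51% lower. The 2 were COL25A1 and COL4A4, which reached the minimum level for a test only through C2, a bird of the higher group. Their count is therefore no result about the chains. The count of chains became 0 without C2, 6 without B4, and 4 without A3, C1 or C4. The share of all genes at this limit was not counted in the fits without a bird. In none of the 3 comparisons did the birds of both groups separate for any tested chain. Over all genes, 0.852% lay wholly higher and 0.869% wholly lower in group B than in group A. These shares were 0.978% and 1.05% in group C against group A, and 0.439% and 0.278% in group C against group B. With shares this small, the lack of a separated chain among 27 is no result about the chains.

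**Figure D3:**
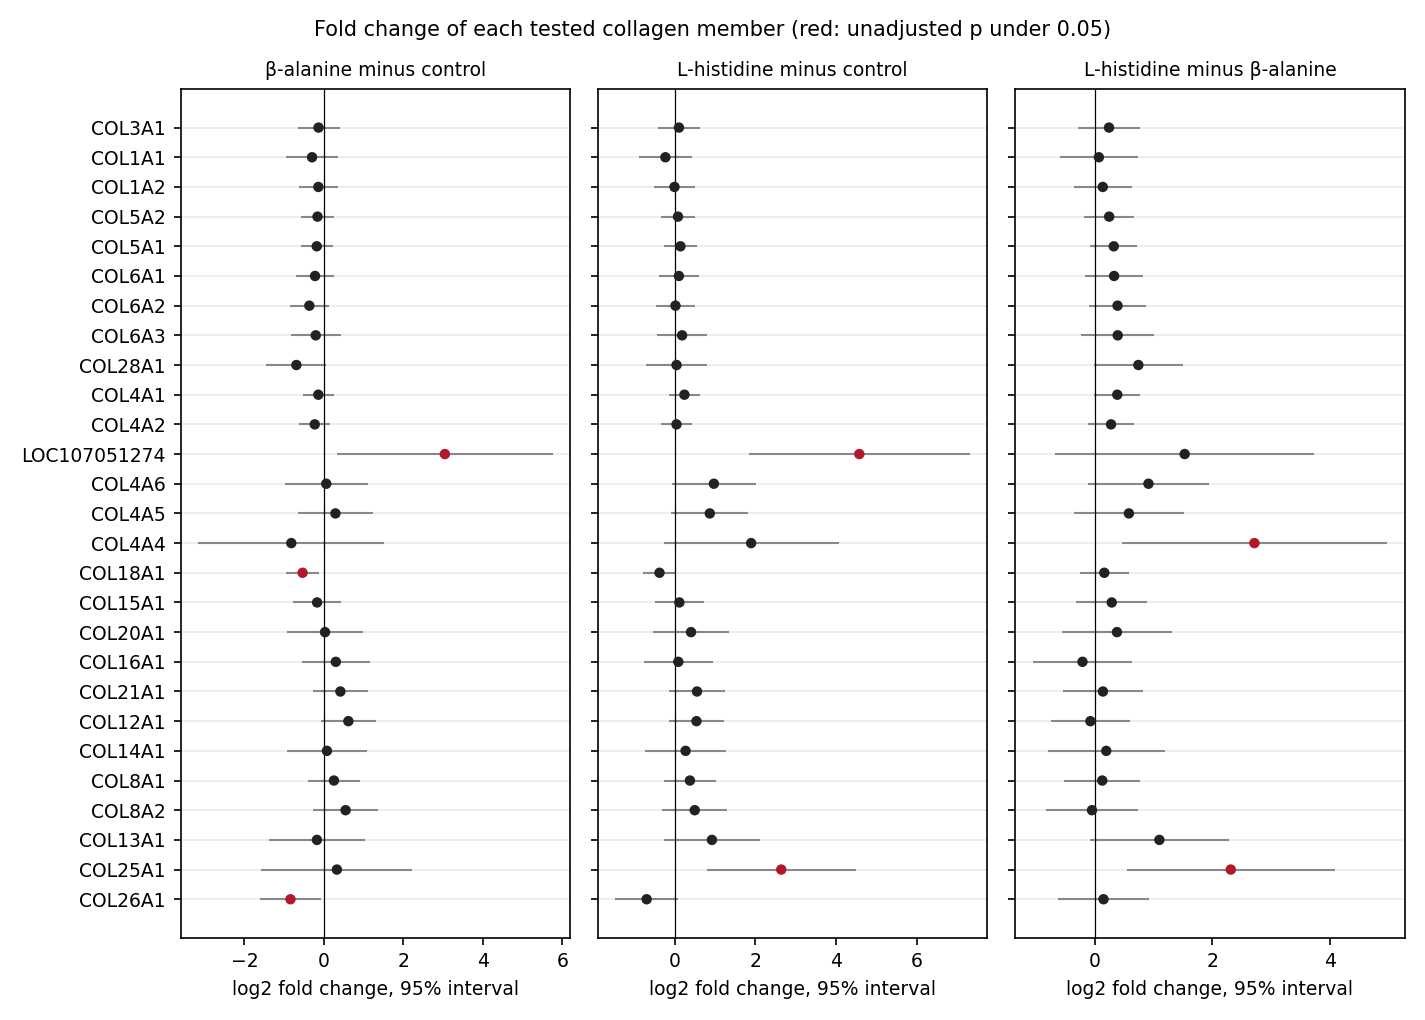
Log2 fold change of each tested collagen chain with an approximate 95% interval derived from the edgeR test, for the 3 comparisons, with chains grouped by collagen type. Red points have an unadjusted p under 0.05 and none has an adjusted p under 0.05. The intervals of COL1A1, COL1A2 and COL3A1 include 0 in all 3 panels, and LOC107051274, COL4A4 and COL25A1 have the widest intervals in the panel of L-histidine minus control.

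Among the fibril-forming chains, all 5 tested members had a fold change below 0 in group B, with a median log2 fold change of -0.16, and 3 of 5 lay above 0 in group C, with a median of 0.09. COL3A1, which forms pliable fibrils of the endomysium and perimysium, had 129, 96.2, 136, 72.2 and 208 normalized FPKM in A1 to A5. In B1 to B5 it had 99.6, 97.4, 105, 135 and 148, and in C1 to C5 135, 179, 140.0, 94.4 and 143. The control birds held both the lowest and the highest value of all 15 birds. On the log2 scale, the fold change was -0.13 in group B (95% interval -0.66 to 0.39) and 0.11 in group C (-0.42 to 0.64), with adjusted p-values of 0.855 and 0.823 by edgeR.

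COL1A1, the major chain of type I collagen, had 66.0, 32.2, 93.7, 39.0 and 83.6 normalized FPKM in the control birds. It had 46.7, 30.5, 57.1, 60.8 and 60.9 in group B and 53.3, 58.7, 86.0, 35.5 and 35.4 in group C. All 5 β-alanine birds were below the control mean of 62.9 ± 26.9, and 4 of them lay within the range of the control birds. In group B its log2 fold change was -0.30 (95% interval -0.96 to 0.36, adjusted p = 0.737) and -0.23 in group C (-0.89 to 0.43, adjusted p = 0.703).

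COL1A2, the partner chain of type I collagen, had 63.5, 37.9, 60.9, 40.8 and 78.2 normalized FPKM in the control birds. The values were 48.8, 36.7, 46.1, 65.3 and 58.7 in group B and 50.0, 63.5, 79.2, 40.7 and 47.8 in group C. The means of groups A and C were equal to 3 digits, at 56.3 ± 16.8 and 56.3 ± 15.3 normalized FPKM, and that of group B was 51.1 ± 11.2. The difference between groups A and C thus had no stable sign, and its 95% interval ran from -0.50 to 0.50 on the log2 scale.

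COL5A1 and COL5A2 are the chains of type V collagen, which nucleates type I fibrils and limits their diameter. COL5A1 had a level of 6.47 to 11.9 normalized FPKM in the controls, 6.23 to 10.6 in group B and 7.81 to 11.9 in group C. COL5A2 had 8.15 to 14.6, 7.90 to 11.5 and 8.08 to 14.3 in the same order. For both chains, the means were lowest in group B and highest in group C, and the log2 fold changes of group C against group B were 0.33 (SE 0.19) and 0.25 (SE 0.20), with an adjusted p of 0.983 each by edgeR.

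The other 4 fibril-forming chains, COL2A1, COL11A1, COL24A1 and COL27A1, did not reach the minimum level for a test. COL2A1, the main collagen of cartilage, had between 0.0408 and 0.735 normalized FPKM in any bird, with the highest value in B5. COL11A1, its fibril partner in cartilage, had 0.0622 to 0.336. Of the listed cartilage markers, ACAN had 5 counts and HAPLN1 16 counts over all 15 birds, while CHAD and COMP were counted in all birds at 8.62 to 33.3 and 13.5 to 69.6 normalized FPKM.

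The basement membrane network had 7 members, of which COL4A3 was not tested. Of the 6 others, 3 had a fold change above 0 with β-alanine, and all 6 did so with L-histidine. Their median log2 fold change in group C was 0.92, and ran from 0.31 to 1.36 when single birds were left out. Among these 6, LOC107051274 was added with its results known, and COL4A4 reached the minimum level for a test only through C2. The counts and the median are therefore partly fixed by the choice of members, and are no result about this network. Without C2, COL4A4 was -1.30 in group C, while COL4A1, COL4A2, COL4A5, COL4A6 and LOC107051274 were 0.27, 0.05, 0.35, 0.65 and 2.37. COL4A1 and COL4A2 form the type IV network found in nearly all basement membranes, and lie head to head on chromosome 1 with 61 bases between their starts (GRCg6a 1:140137042-140249110, minus strand, and 1:140249172-140391078, plus strand). COL4A1 had 67.8, 58.4, 47.2, 40.3 and 51.1 normalized FPKM in the control birds, 52.5, 39.5, 37.3, 58.5 and 52.7 in group B, and 63.7, 58.6, 60.6, 52.1 and 79.0 in group C. All 5 birds of group C lay above the mean of group B, and the groups still overlapped, since B1, B4 and B5 were above C4. The log2 fold change was -0.14 (SE 0.18) in group B and 0.25 (SE 0.18) in group C, and 0.38 (SE 0.18) between groups C and B (adjusted p = 0.983 by edgeR).

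COL4A2 had 69.1, 43.0, 40.7, 41.4 and 42.4 normalized FPKM in the controls, 42.8, 33.9, 36.1, 47.8 and 41.2 in group B, and 48.5, 49.1, 50.8, 37.8 and 58.7 in group C. Bird A1 alone was 1.60 times the next control bird, and the other 4 control birds lay between 40.7 and 43.0. On the log2 scale, the fold change was -0.23 (SE 0.18) in group B and 0.05 (SE 0.18) in group C. The summed level of the 5 endothelial markers, cells that rest on a type IV basement membrane, was 25.6 to 46.7 normalized FPKM in the controls, 27.8 to 54.7 in group B and 42.6 to 69.4 in group C. That of the fast muscle markers was 91359 to 145214, 76741 to 101773 and 59914 to 109410 in the same order. The endothelial markers differed among themselves. PECAM1 was 8.14 to 25.2 in the controls and 20.1 to 46.4 in group C. For CDH5 these ranges were 6.44 to 13.1 and 10.3 to 13.3, and for KDR 1.44 to 2.51 and 2.18 to 3.40. For FLT1 they were 1.47 to 2.22 and 1.22 to 2.16, and for TEK 3.62 to 4.79 and 4.51 to 6.73. The part of either sum in the levels of the basement membrane chains was not tested.

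COL4A5 and COL4A6, a pair of chains of the basement membranes of smooth muscle and some epithelia, are likewise head to head, 520 bases apart on chromosome 4. Their mean levels were 0.632 ± 0.328 and 0.969 ± 0.777 normalized FPKM in the controls, 0.777 ± 0.256 and 1.01 ± 0.312 in group B (SD, n = 5), and in group C their levels ranged from 0.297 to 2.57 and from 0.551 to 3.43. C2 was the highest of all 15 birds for both, at 2.57 and 3.43. The log2 fold changes in group C were 0.87 (SE 0.45, adjusted p = 0.294) and 0.97 (SE 0.49, adjusted p = 0.287) by edgeR, and without C2 they were 0.35 and 0.65. The smooth muscle and pericyte list had its highest sum in C2 as well, at 264 normalized FPKM against 49.1 to 111 in groups A and B. Most of it came from CNN1 at 191. ACTA2, MYH11 and RGS5 in C2, at 7.74, 2.54 and 55.7, lay within the range of groups A and B. PDGFRB was 7.40 in C2, where the highest bird of groups A and B had 7.33. The part of this list in the levels of these chains was not tested.

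LOC107051274, the chain similar to COL4A2, is annotated as a single stretch of 392 bases on an unplaced scaffold (positions 111979 to 112370, minus strand, GRCg6a), far shorter than the 6970 exonic bases of COL4A2. Its fold change was the largest of the 27 chains in both supplemented groups, in the birds whose results led to its addition. The level was 0, 0.690, 1.10, 1.06 and 1.26 normalized FPKM in A1 to A5, 5.02, 22.4, 3.69, 2.59 and 0.482 in B1 to B5, and 11.8, 81.4, 1.13, 0.664 and 3.32 in C1 to C5. The control birds were all low, and 4 of 5 birds in each supplemented group lay above the control mean of 0.823 ± 0.506. The groups overlapped, since B5, C3 and C4 were within the control range, and B2 and C2 stood far above the rest.

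The counts behind these values were 0 to 7 in the control birds, 3 to 128 in group B and 4 to 567 in group C, so that C2 held 567 of all 893 counts. By edgeR the log2 fold change was 3.04 in group B (SE 1.28, adjusted p = 0.445 by edgeR) and 4.57 in group C (SE 1.29, adjusted p = 0.170). DESeq2 gave 4.56 in group C with an adjusted p of 0.0261, its sole call among the collagen chains. Without C2 the log2 fold change in group C was 2.37 by both tools, with an adjusted p of 0.350 by edgeR and 0.206 by DESeq2. Without B2 that of group B was 1.83. Over the 15 DESeq2 fits that each left out 1 bird, the chain was called in group C in 9. There it was not called in 3 (without A3, A4 or C2) and given no adjusted p in 3 (without A1, A5 or C1). Group C against group B changed from 1.53 (SE 1.04) to -0.68 without C2. Whether its reads also match COL4A2 or another copy was not tested.

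COL4A4, a chain of the type IV network of kidney and inner ear in mammals, had its level in group C from 1 bird. It had 0.133, 0.102, 0.172, 0 and 0.0947 normalized FPKM in the controls, 0.0794, 0.0575, 0.0101, 0.0726 and 0.0737 in group B, and 0.0386, 1.77, 0.0371, 0.0544 and 0.0344 in group C. C2 was 32.5 times the next bird of its group and held 188 of the 268 counts. The other 4 birds of group C lay within the range of groups A and B. COL4A4 reached the minimum level for a test only through C2, so its tests in group C are not independent of that bird. The log2 fold change of group C against group B was 2.71 (SE 1.07, adjusted p = 0.983 by edgeR) and -0.49 without C2. Against group A it was 1.896 (SE 1.03) and -1.30 without C2. COL4A3, its partner, overlaps it by 16976 bases on the opposite strand, and the effect of this overlap on the counts of the pair was not tested. The highest level of COL4A3 was likewise in C2, at 0.312 against 0.0925 or less in the other 14 birds.

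**Figure D4:**
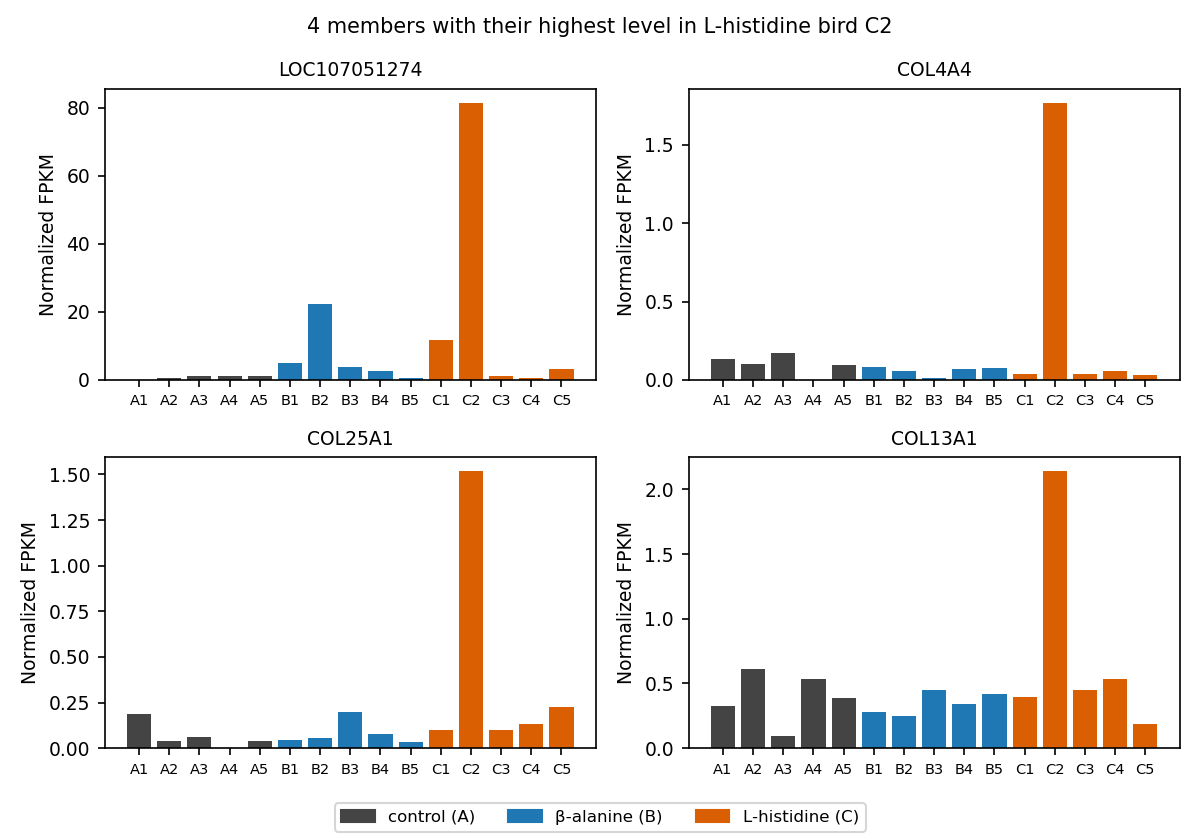
Normalized FPKM of LOC107051274, COL4A4, COL25A1 and COL13A1 in each of the 15 birds, 1 bar per bird on linear axes that start at 0. Bird C2 is the highest bar in all 4 panels (81.4, 1.77, 1.52 and 2.14), and for LOC107051274 bird B2 follows at 22.4.

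The multiplexins COL18A1 and COL15A1 sit at the basement membranes of vessels and muscle fibres, and COL18A1 carries the fragment endostatin at its end. COL18A1 had 45.4, 29.6, 30.2, 37.2 and 28.2 normalized FPKM in the control birds, 21.5, 23.1, 20.8, 34.9 and 17.5 in group B, and 22.6, 27.6, 30.1, 29.0 and 22.6 in group C. Of the β-alanine birds, 4 lay below every control bird and B4 among them, and all 5 L-histidine birds lay below the control mean of 34.1 ± 7.19. The log2 fold change was -0.53 in group B (SE 0.20, adjusted p = 0.424 by edgeR, 0.251 by DESeq2) and -0.37 in group C (SE 0.20, adjusted p = 0.304 by edgeR). Without A1, the highest bird, the value of group B was -0.41. DESeq2 called COL18A1 in group B in 1 of its 15 fits that each left out a bird, that without B4.

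COL15A1 had 5.14 to 15.1 normalized FPKM in the controls, 5.88 to 13.2 in group B and 7.35 to 15.6 in group C. Its log2 fold changes were -0.17 (SE 0.29) in group B and 0.12 (SE 0.29) in group C. The value of group C was -0.038 without C2 and -0.048 without A4. The part of the endothelial and fast muscle sums given above in the levels of COL18A1 and COL15A1 was not tested.

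All 4 tested beaded filament chains had a fold change below 0 in group B, with a median log2 fold change of -0.29, and above 0 in group C, with a median of 0.08. Type VI collagen is made from COL6A1, COL6A2 and COL6A3, and its filaments anchor the basement membrane of the fibre to the surrounding matrix. COL6A1 had 65.2, 39.5, 46.1, 38.6 and 73.4 normalized FPKM in the controls, 41.3, 38.0, 41.3, 63.1 and 41.7 in group B, and 49.8, 75.3, 57.2, 36.5 and 64.5 in group C. COL6A2 had 59.3, 35.0, 44.5, 39.0 and 58.8, then 32.6, 30.3, 31.2, 54.1 and 35.5, and 40.4, 68.9, 46.8, 31.6 and 52.9 in the same order. Both chains had the same highest birds, A1 and A5 in the controls, B4 in group B and C2 in group C, and the remaining 4 birds of group B were within 38.0 to 41.7 and 30.3 to 35.5.

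COL6A3, the longest of the 3 chains, had 14.3 ± 5.24, 12.4 ± 3.29 and 16.3 ± 6.44 normalized FPKM in groups A, B and C. The log2 fold changes of COL6A1, COL6A2 and COL6A3 were -0.22 (SE 0.23), -0.37 (SE 0.23) and -0.20 (SE 0.30) in group B. In group C they were 0.11 (SE 0.23), 0.02 (SE 0.23) and 0.19 (SE 0.30), and all 3 were below 0 without C2, at -0.02, -0.14 and -0.04. COL28A1, a chain with the same kind of domains that is known from peripheral nerve in mice, had 3.56 to 18.4 in the controls, 3.72 to 9.87 in group B and 6.77 to 11.8 in group C. Its log2 fold change of group C against group B was 0.74 (SE 0.36, adjusted p = 0.983 by edgeR). Against group A, COL28A1 had 0.05 in group C, and -0.08 without A4. COL6A6 was counted in 14 of 15 birds at a level below the filter.

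The fibril-associated chains sit on the surface of fibrils and link them to other matrix. All 5 tested members had fold changes above 0 in both supplemented groups, with medians of 0.30 in group B and 0.41 in group C, and none had an unadjusted p under 0.05. When single birds were left out, these medians ran from 0.16 to 0.52 and from 0.17 to 0.57. COL12A1, found in dense connective tissue, had 0.374 ± 0.122, 0.576 ± 0.246 and 0.547 ± 0.240 normalized FPKM in groups A, B and C, and COL21A1 had 0.506 ± 0.184, 0.683 ± 0.158 and 0.752 ± 0.348. COL14A1, COL16A1 and COL20A1 had log2 fold changes of 0.03 to 0.30 in group B and 0.09 to 0.41 in group C. The shared direction moved with single birds. Without C2, COL16A1 was -0.33 and COL20A1 -0.046 in group C, while COL12A1, COL14A1 and COL21A1 were 0.23 to 0.24. Without A4, COL16A1 was -0.048 in group C, COL14A1 was -0.17 and COL20A1 -0.20 in group B, and the others stayed above 0. The type IX chains of cartilage were near 0, with 30, 16 and 43 counts over all birds for COL9A1, COL9A2 and COL9A3, and COL19A1 and COL22A1 were below the filter.

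COL25A1 and COL13A1 are transmembrane collagens that in mice take part in the contact between motor nerve and muscle fibre. COL25A1 had 0.185, 0.0369, 0.0586, 0 and 0.0386 normalized FPKM in the controls, 0.0462, 0.0562, 0.197, 0.0789 and 0.0343 in group B, and 0.102, 1.52, 0.101, 0.133 and 0.224 in group C. All 5 birds of group C were above the mean of group A and of group B, but A1 and B3 were above C1, C3 and C4, and C2 held 198 of the 337 counts. COL25A1 reached the minimum level for a test only through C2, so its edgeR tests in group C are not independent of that bird. On the log2 scale, the fold change was 2.64 in group C (SE 0.87, adjusted p = 0.177 by edgeR, 0.0507 by DESeq2) and 2.31 against group B (SE 0.84, adjusted p = 0.983 by edgeR). Without C2 these values were 1.07 and 0.74. DESeq2 called COL25A1 in group C in 1 of its 15 fits that each left out a bird, that without C3.

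COL13A1 had 0.393 ± 0.202 normalized FPKM in the controls, 0.346 ± 0.0864 in group B and 0.743 ± 0.792 in group C, where C2 had 2.14 and the other 4 birds 0.189 to 0.538. The log2 fold change in group C was 0.93 (SE 0.56, adjusted p = 0.364 by edgeR), and without C2 it was 0.0054. The summed level of the 4 Schwann cell markers was 4.72 to 16.7 in the controls, 4.85 to 26.5 in group B and 3.76 to 6.01 in group C, and its part in the levels of COL25A1 and COL13A1 was not tested. COL17A1 and COL23A1 were below the filter.

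COL26A1, a collagen described in testis and ovary of mice, had 1.59, 2.16, 0.477, 0.959 and 0.762 normalized FPKM in the controls, 0.662, 0.567, 0.487, 0.828 and 0.794 in group B, and 0.719, 0.331, 1.06, 0.799 and 0.807 in group C. All 10 supplemented birds were below the control mean of 1.19 ± 0.680, which A1 and A2 raised, while A3 was below all birds but C2. In group B its log2 fold change was -0.84 (SE 0.37, adjusted p = 0.445 by edgeR) and -0.69 in group C (SE 0.36, adjusted p = 0.304). The short-chain network chains COL8A1 and COL8A2, of vessel walls and the cornea, had log2 fold changes of 0.25 (SE 0.31) and 0.55 (SE 0.38) in group B, and 0.38 (SE 0.31) and 0.50 (SE 0.38) in group C. Without C2, these values of group C were 0.13 and 0.57. Without A4, they were 0.10 and 0.39 in group B, and 0.22 and 0.34 in group C. COL10A1, of growth plate cartilage, had 18 counts over all birds.

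The ratio of chains within a bird does not depend on how the libraries are scaled. It does depend on the annotated exonic lengths, such as 4594 bases for COL6A1 and 5797 for COL6A2. Which chain is higher at a ratio near 1 rests on these lengths. The pairs were chains of the same collagen type, except COL3A1/COL1A1, which sets type III against type I. COL6A1/COL6A2 had the smallest spread, with a ratio of levels of 0.989 to 1.32 and a coefficient of variation of 7.83% over 15 birds, and COL6A1 was the higher chain in 14 of 15 birds. COL4A1/COL4A2 was next, at 0.972 to 1.38 and 10.6%, with medians of 1.16, 1.22 and 1.31 in groups A, B and C. For comparison, the level of COL6A1 varied from 36.5 to 75.3 normalized FPKM over the same birds.

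COL1A1/COL1A2 ranged from 0.740 to 1.54 with a median of 0.957, and was above 1 in 7 of 15 birds, with the highest value in the control group. COL3A1/COL1A1 was above 1 in 15 of 15 birds, at 1.45 to 4.04, with medians of 1.95, 2.22 and 2.66 in groups A, B and C that lay within the range of the birds of each group. COL5A1/COL5A2 was below 1 in 14 of 15 birds, COL6A3/COL6A1 ranged from 0.207 to 0.342, and COL4A5/COL4A6 and COL8A1/COL8A2 varied most, with coefficients of variation of 42.8% and 45.8%.

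**Figure D5:**
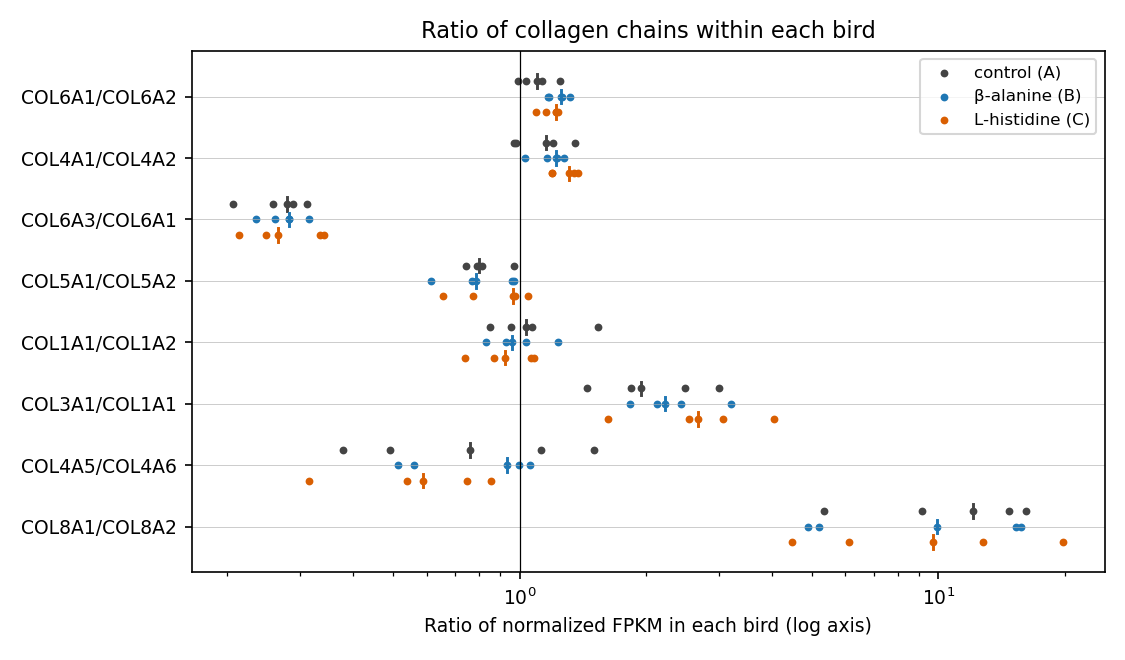
Ratio of the normalized FPKM of chain pairs within each bird, on a log axis, with a bar at the median of each group of 5 birds and a line at a ratio of 1. Points of COL6A1/COL6A2 lie between 0.989 and 1.32, and those of COL8A1/COL8A2 between 4.48 and 19.9.

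Genes that fold, process, crosslink, degrade or bind collagen were counted beside the chains. Of 42 listed genes, 38 were in the table and 33 were tested. Neither edgeR nor DESeq2 called any of them in any comparison. At an unadjusted p under 0.05, 2 were higher and 6 lower in group B, where 4.47% and 6.17% of all genes were, and 2 were higher and 4 lower in group C, against 7.99% and 11.2%. In group C against group B, 2 were higher and 1 lower, against 2.51% and 1.51%. The median log2 fold changes of the list were -0.02 and 0.01.

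SERPINH1, the collagen chaperone HSP47, was reported by the study as downregulated in group B and was listed with this result known. It had the smallest p in group B, with 25.3 ± 6.20 normalized FPKM against 40.2 ± 4.95 in the controls. Its log2 fold change was -0.67 (SE 0.19, adjusted p = 0.358 by edgeR, 0.0858 by DESeq2). It was followed by the lysyl hydroxylase PLOD1 at -0.78 (SE 0.25) and by P3H4, which acts with prolyl and lysyl hydroxylases, at -0.78 (SE 0.32). In group C, the 3 smallest p-values were those of PCOLCE, which enhances the cleavage of procollagen, at -0.70 (SE 0.23, adjusted p = 0.177 by edgeR), of P3H4 at -0.84 (SE 0.32) and of ADAMTS2, a procollagen peptidase, at 0.61 (SE 0.24).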

How the data were processed

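RNA from the left breast muscle of 15 birds was sequenced, with a library for each bird. Per the methods of the authors, cutadapt 1.9.1 served for trimming, HISAT2 2.0.1 for alignment to GRCg6a and HTSeq 0.6.1 for counting of fragments, and the deposited table holds the whole-number count of each gene. The deposited FPKM are the authors' counts per kilobase of exon and relative to the library's counted fragments. Strand use, the annotation release and the handling of multiply mapped reads are not given in the sources used here.

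Birds were grouped by the sample titles. The quasi-likelihood test of edgeR 4.0.16 (R 4.3.3) was applied to the counts of all 15 birds without covariates, after scaling by relative log expression. Tested were 11858 genes whose deposited FPKM averaged 0.2 or more, and p-values were adjusted over them by Benjamini-Hochberg. A call needed an adjusted p under 0.05. DESeq2 1.42.0 was run without this filter, on 15897 genes. Depth was 10620229 to 15381547 counts per bird, and p-values measure the spread between birds of different cages. Named with values were LOC107051274, the tested fibril-forming chains, the 10 highest chains, chains with an unadjusted p under 0.05 in any comparison or called by either tool, and the 3 listed processing genes with the smallest p per supplemented group; other chains were named with ranges after their values were seen. Members and lists were chosen with earlier results of these data known.

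Alternatives to scaling, filter, model and birds were run. Chromosome names come from gene symbols in the RefSeq table of a later build, and coordinates are those of the deposited table.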

Additional observations from a re-analysis of the deposited data

Results flagged for a closer look

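In 10 of 81 groups of 5 birds examined (27 tested chains in 3 groups), 1 bird lay farther from its nearest neighbour than Dixon's limit for 5 values. For normal and independent values, chance flags about 1 in 20 groups. These levels were not on a log scale and include low counts and chains that vary together, so this rate is no benchmark for them. Bird C2 had 5 of these values: LOC107051274 at 81.4 normalized FPKM (next bird 11.8), COL4A4 at 1.77 (next 0.0544), COL25A1 at 1.52 (next 0.224), COL13A1 at 2.14 (next 0.538) and COL20A1 at 3.50 (next 1.59). Bird B4 had COL6A1 at 63.1 (next 41.7) and COL6A2 at 54.1 (next 35.5). Single values lay far above the rest of their group for LOC107051274 in B2, at 22.4 (next 5.02), COL25A1 in B3, at 0.197 (next 0.0789), and COL4A2 in A1, at 69.1 (next 43.0).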

How the results depend on the processing

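The limits of these data are the 5 birds per group, the spread of the birds and the low counts of LOC107051274, COL25A1 and COL4A4, whose values rest on C2. The cause of the changes below was not tested, apart from the genes or birds that a setting removes by construction.

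Genes called rose from 0 to 59 in group B and 235 in group C with DESeq2, which called 1 chain, LOC107051274 in group C (log2 fold change 4.56), and 1 gene was called in group C with only both compared groups fitted. The shares of all genes at an unadjusted p under 0.05, or with a fold change above 0, were not counted under the settings of this section. The counts of chains given here are therefore no result about the chains. Chains at an unadjusted p under 0.05 became 5 (B against A), 7 (C against A) and 5 (C against B) without the filter. They became 1 in C against A and 1 in C against B at a mean FPKM of at least 1. With DESeq2 they became 6 in C against A, and with both compared groups alone 5 in C against B. The counts without the filter and with DESeq2 also cover chains that the filter leaves out, unlike the main counts. Among the 6 by DESeq2, such chains were COL4A3, COL9A3 and COL23A1, with unadjusted DESeq2 p-values of 0.0362, 0.0265 and 0.0435. The control birds A3 and A4 had the lowest mapping rate in the study. Without them, chains at this limit became 4 in C against A and 4 in C against B. Chains above 0 then became 7 in B against A and 13 in C against A, and 5 in B against A at a mean FPKM of at least 1. With library totals in place of scaling, chosen after seeing the data like the count of chains above 0, the DESeq2 fits without single birds and the values of unnamed chains without A4 or C2, all genes had median log2 fold changes of 0.18, 0.29 and 0.10 in the 3 comparisons, and chains at an unadjusted p under 0.05 became 7 in C against A and 4 in C against B.

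The sign changed for these log2 fold changes. In B against A, COL25A1 was -0.027 without A3 and A4, and with library totals COL3A1 was 0.023, COL1A2 0.037, COL5A2 0.017 and COL4A1 0.033. In C against A, COL1A2 was 0.0062 with TMM, 0.070 with upper-quartile scaling, 0.044 at a mean FPKM of at least 1 and 0.25 with library totals, where COL1A1 was 0.030. Without A3 and A4, COL3A1 was -0.056, COL5A2 -0.069, COL6A1 -0.063, COL4A2 -0.068, COL6A2 -0.081 and COL6A3 -0.036.

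With the replicate block, COL1A2 in C against A was 0.032 and 1 chain had an unadjusted p under 0.05 in C against B. The replicate numbers name cages within a group, and same-numbered birds deviated together with correlations of -0.21 to 0.29 (over 0.1 in 6 of 15 pairs, with 5 of 15 birds closest to their own number), so they were not taken as pairs.

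When each bird was left out in turn, edgeR called 0 to 1 genes in B against A, 0 to 2 in C against A and 0 to 0 in C against B, and 0 to 0 chains in each. DESeq2 called 29 (without B1) to 133 genes (without A2) in B against A, 40 (without A4) to 988 (without A2) in C against A and 0 to 3 (without B5) in C against B, with 0 to 1, 0 to 2 and 0 to 0 chains. Chains at an unadjusted p under 0.05 ranged over 0 to 5, 1 to 6 and 0 to 6, and chains above 0 over 8 to 12, 14 to 24 and 20 to 26. For all genes, neither count was made in these fits. Ranges of log2 fold changes that crossed 0 were, in B against A, COL3A1 -0.28 to 0.11, COL1A2 -0.25 to 0.0098 and COL25A1 -0.30 to 1.19. In C against A they were COL1A2 -0.16 to 0.15, COL3A1 -0.040 to 0.35, COL4A2 -0.025 to 0.22, COL5A2 -0.0027 to 0.21, COL6A1 -0.016 to 0.26, COL6A2 -0.14 to 0.14, COL6A3 -0.039 to 0.36 and COL4A4 -1.30 to 2.19. In C against B they were COL1A1 -0.16 to 0.19, COL1A2 -0.019 to 0.24, COL26A1 -0.011 to 0.34, COL4A4 -0.49 to 3.01 and LOC107051274 -0.68 to 2.74. The ratio COL9A1/COL9A2 could not be computed, since COL9A2 had no count in any control bird.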
